A study of Rattus norvegicus with 12 samples.

Results

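The genes described here encode 10 enzymes and helper proteins that make or break down prostaglandins, thromboxane and leukotrienes: Ptgs1, Ptgs2, Ptges, Ptgis, Tbxas1, Hpgd, Hpgds, Alox5, Alox5ap and Alox15. They were chosen by name, as every probe whose RefSeq accession belongs to one of these symbols. That gave 11 probes of the 30367 rat probes on the array, 2 for Ptgs1 and 1 for each of the others, and 10 genes of the 14737 that could be named. All 10 genes passed the filter on dim probes. The filter kept 21239 probes, those flagged as clearly brighter than background in every rat of some group.

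Lung RNA of 12 male Sprague–Dawley rats, aged 8 to 12 weeks by the labels, was measured on single-colour Agilent arrays, 1 rat to an array and 3 rats to a group. Rats of the CS + LPS group breathed cigarette smoke (CS) for about a month and had lipopolysaccharide (LPS), a bacterial endotoxin, instilled into the trachea, and control rats followed the same schedule with air or saline. The CS + LPS + NaHS group was also injected, before each exposure, with NaHS, a salt that releases hydrogen sulfide (H2S), and the CS + LPS + PPG group with propargylglycine (PPG), which blocks CTH, an enzyme that makes H2S. The model is a short exposure that the study used for chronic obstructive pulmonary disease, and lung tissue, after a lung function test under anaesthesia, was taken the day after the last exposure.

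Arachidonic acid, cut from membrane lipids by phospholipases, is the common source of these lipid mediators. Cyclooxygenases turn it into prostaglandin H2, from which separate synthases make prostaglandin E2, prostaglandin D2, prostacyclin or thromboxane A2, while 5-lipoxygenase with its activating protein starts the leukotrienes. In the lung, prostacyclin relaxes vessels, thromboxane and cysteinyl leukotrienes contract airway and vessel muscle, and the lung clears prostaglandins from the blood by taking them up and oxidizing them.

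A few facts of the whole array set bear on every value below. The 75th percentile of the signal ran from 1229 to 3261, between 66.0% and 75.5% of probes were well above background, and with 3 arrays to a group precision was limited throughout. All CS + LPS arrays lay on slide 2 together with control replicate 3, and all other arrays lay on slide 1, so that slide and group cannot be told apart when the CS + LPS group is compared with a treated group. Between CS + LPS and control they are separated only through control replicate 3, so that comparison is not free of slide either. Control replicate 3 had the lowest signal and correlated with the other arrays at 0.936 to 0.957, against at least 0.975 among the other arrays (Pearson's r over probes, which are not independent replicates). It was the lowest of all 12 arrays for 6 of the 10 genes. The 6 lung markers Sftpc, Sftpb, Sftpa1, Ager, Aqp5 and Scgb1a1 were above background on all 12 arrays, as was the pancreatic enzyme Ctrb1, whereas 3 other pancreatic genes of 6 on the array were above background on none. Summed signal of those 6 was 423 to 491 on the CS + LPS arrays and 1530.0 to 2674 on the NaHS arrays, with 683 to 1447 on control and 581 to 1750 on PPG arrays, and the part of such tissue in any result was not tested. All levels are log2 of the processed signal after scaling to the 75th percentile, and levels of different probes are not compared. A gene is called when its groups differed at least 2-fold with an unadjusted p under 0.05 in limma, the threshold of the study's methods, and the Benjamini-Hochberg adjusted p over all 21239 probes is given beside it.

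Between the CS + LPS and control groups, Hpgds rose and was the only gene of the 10 that was called, and Tbxas1 rose by less than 2-fold with an adjusted p under 0.05. The same held between the CS + LPS + PPG and control groups. No gene of the 10 was called between the CS + LPS + NaHS group and any other group, or between the CS + LPS + PPG and CS + LPS groups. Over all probes, 4.60% were called between CS + LPS and control (1.53% higher), 4.30% between PPG and control (2.39% higher), and 2.58% between NaHS and control. Between NaHS and CS + LPS 1.94% were called, between PPG and CS + LPS 2.14%, and between NaHS and PPG 0.499%. A count of 1 gene in 10 is too small to set against these shares. In these last 3 comparisons, in the same order, an adjusted p under 0.05 was reached by 0.739%, 0.584% and 0% of all probes and by none of the 10 genes. At an unadjusted p under 0.05 in limma, whatever the fold, there were 2 genes in NaHS against control (Ptges and Tbxas1), 1 in NaHS against CS + LPS (Tbxas1), and 0 in PPG against CS + LPS and in NaHS against PPG. Over all probes the shares at that p were 17.6%, 10.1%, 10.8% and 8.87% in the same order. The methods' t-test called Ptgs2 in NaHS against CS + LPS, where it called 1.62% of all probes, and 0 genes in the other 3 of these comparisons. Ptgs2 had passed the filter on dim probes through the NaHS group alone. The median log2 difference from control over the 10 genes was 0.21 in CS + LPS, 0.47 in NaHS and 0.40 in PPG, beside medians of -0.062, 0.021 and -0.00050 over all probes tested.

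**Figure D1:**
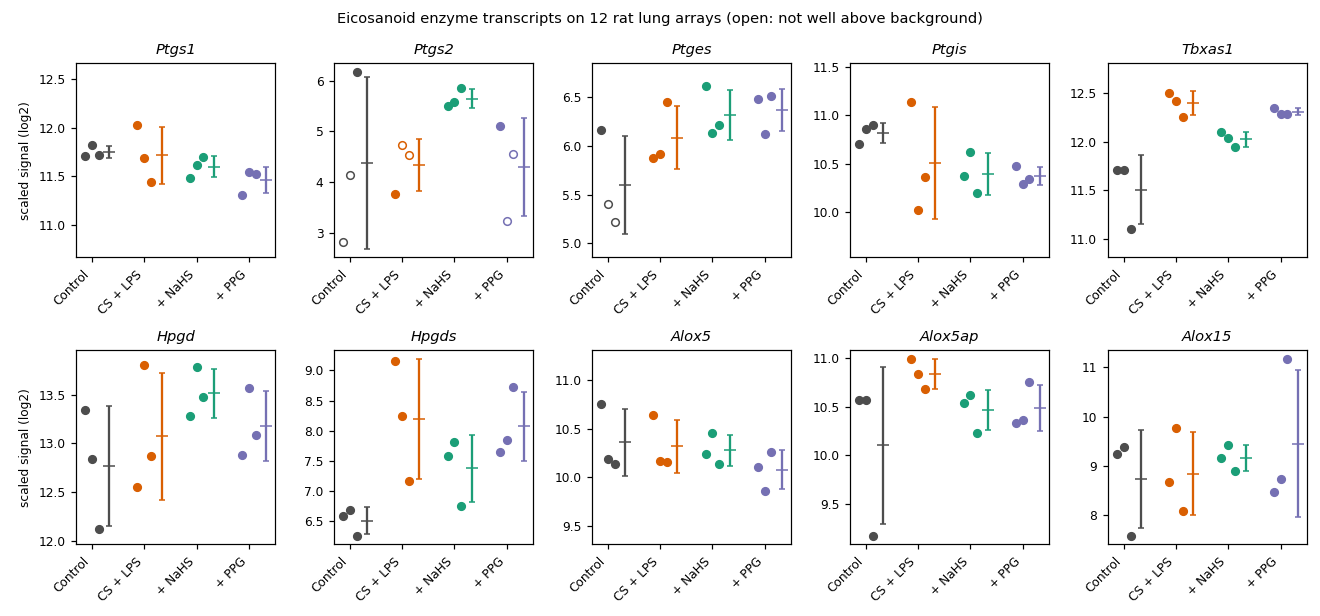
Scaled signal (log2) of the 10 genes on the 12 arrays, with 1 point per rat, open where the probe was not well above background, and the group mean with its SD (n = 3) to the right of the points. For Hpgds and Tbxas1 all 9 exposed arrays sit above all 3 control arrays, and Ptgs2 and Ptges are the genes with open points.

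Hpgds encodes the haematopoietic prostaglandin D synthase, which makes prostaglandin D2 and is known from mast cells, T helper cells and antigen-presenting cells. In the control group its levels were 6.59, 6.68 and 6.26. In the CS + LPS group they were 9.16, 8.24 and 7.17. The groups did not overlap, and the CS + LPS rats differed widely among themselves. With NaHS the levels were 7.57, 7.81 and 6.75, and with PPG they were 7.64, 7.85 and 8.72. All 9 exposed arrays were above the highest control array, at 6.75 or more against 6.68 or less, and the 3 exposed groups overlapped with each other.

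The means of Hpgds ran in the order control (6.51 ± 0.22, SD, n = 3), NaHS (7.38 ± 0.55), PPG (8.07 ± 0.57) and CS + LPS (8.19 ± 1.00). From control to CS + LPS this was a rise of 1.68 (log2, SE 0.47), or 3.21-fold, with an adjusted p of 0.0810 in limma, so that the call does not hold after adjustment. From control to PPG the rise was 1.56 (SE 0.47), or 2.95-fold (limma, adjusted p = 0.0683). From control to NaHS the difference was 0.87 (95% interval -0.16 to 1.90, limma, adjusted p = 0.349), which was not called. Neighbours in this order did not differ beyond their spread, except that NaHS and control did not overlap.

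Whether Hpgds differed between treated and untreated exposed rats could not be settled. NaHS lay 0.82 below CS + LPS (95% interval -1.84 to 0.21, limma, adjusted p = 0.674), an interval that runs from a fall of more than 2-fold to a small rise. Without CS + LPS replicate 3, the lowest of its group, the difference was -1.33 and was called, and without replicate 1, the highest, it was -0.33. PPG lay 0.12 below CS + LPS (95% interval -1.15 to 0.91), and NaHS lay 0.69 below PPG (-1.72 to 0.33).

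The call of Hpgds in CS + LPS against control held with each array left out, at 1.20 to 2.19. On slide 2 alone, with control replicate 3 as the only control, the difference was 1.93. With normexp background correction it shrank to 1.00 in CS + LPS, still called, and to 0.89 in PPG, which was not called. Of 13151 named probes above background on all arrays, the levels of Ran, a small GTPase of nuclear transport, and Mrpl17, a protein of the mitochondrial ribosome, followed those of Hpgds most closely over the 12 arrays, which share the 4 groups and the slides (Pearson's r of 0.968 and 0.947, as a description).

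Tbxas1 encodes thromboxane A synthase, which turns prostaglandin H2 into thromboxane A2 and is known from platelets and macrophages. The 250 bases before its RefSeq start site (GRCr8, chr4:68631635-68631884, plus strand) are shown because it is the gene with an adjusted p under 0.05 in 2 comparisons, with matches to GAGGAA, the core of sites of the myeloid factor PU.1, in capitals.
Tbxas1: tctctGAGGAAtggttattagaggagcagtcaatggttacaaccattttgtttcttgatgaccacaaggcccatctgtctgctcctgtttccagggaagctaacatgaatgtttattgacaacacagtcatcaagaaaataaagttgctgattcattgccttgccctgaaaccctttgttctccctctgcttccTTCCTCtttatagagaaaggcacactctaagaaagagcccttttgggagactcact
One match lies 245 to 240 bases before the start site on the gene's strand, the other 56 to 51 bases before it on the opposite strand, and 23.3% of 33469 rat promoter windows of the same length hold at least 1. The window had a GC content of 42.8%, against a median of 51.2% over all of them. These are letter matches and describe the sequence, not binding.

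Levels of Tbxas1 in the control group were 11.71, 11.71 and 11.10. In the CS + LPS group they were 12.51, 12.42 and 12.26. With NaHS they were 12.10, 12.04 and 11.95, and with PPG they were 12.35, 12.29 and 12.29. Each exposed group lay above every control array, the NaHS group lay below both other exposed groups without overlap, and the PPG and CS + LPS groups overlapped.

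The means of Tbxas1 ran in the order control (11.51 ± 0.35, SD, n = 3), NaHS (12.03 ± 0.077), PPG (12.31 ± 0.036) and CS + LPS (12.40 ± 0.13). Tbxas1 rose by 0.89 (SE 0.17), or 1.85-fold, in CS + LPS against control (limma, adjusted p = 0.0305). It rose by 0.80 (SE 0.17), or 1.74-fold, in PPG against control (limma, adjusted p = 0.0322). An adjusted p under 0.05 was reached by 2.10% of all probes in the first comparison (0.862% higher) and 5.20% in the second (3.22% higher). In NaHS against control the difference was 0.52 (SE 0.17, limma, adjusted p = 0.184), where 0.122% of all probes reached an adjusted p under 0.05.

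Between NaHS and CS + LPS, Tbxas1 differed by -0.37 (95% interval -0.73 to -0.0036, limma, adjusted p = 0.487). Between NaHS and PPG, which share slide 1, it differed by -0.28 (-0.65 to 0.084, limma, adjusted p = 0.626). Between PPG and CS + LPS it differed by -0.088 (-0.45 to 0.28). None of these was called or had an adjusted p under 0.05 in this fit, and the intervals hold changes of up to 0.73 in size. With slide as a block, which rests on control replicate 3, NaHS lay 0.98 and PPG 0.70 below CS + LPS.

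The adjusted p of Tbxas1 was close to the threshold. It was 0.05 or more in 7 of 12 fits with 1 array left out for CS + LPS against control, the highest being 0.0844 without CS + LPS replicate 3. For PPG against control it was 0.05 or more in 5 of 12, the highest being 0.0979 without PPG replicate 3. The differences themselves stayed at 0.68 to 0.99 and at 0.60 to 0.90. Without a filter the adjusted p was 0.0590 in CS + LPS and 0.0704 in PPG against control, with the groups compared alone 0.261 and 0.175, and by the methods' t-test 0.349 and 0.214, and with the replicate block it was 0.0528 in PPG. Within slide 1 the rise in PPG was 0.60 (limma, adjusted p = 0.0255) and the difference in NaHS was 0.32 (adjusted p = 0.182), and within slide 2, against control replicate 3 alone, its lowest array, CS + LPS lay 1.30 higher, a value given with no test.

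**Figure D2:**
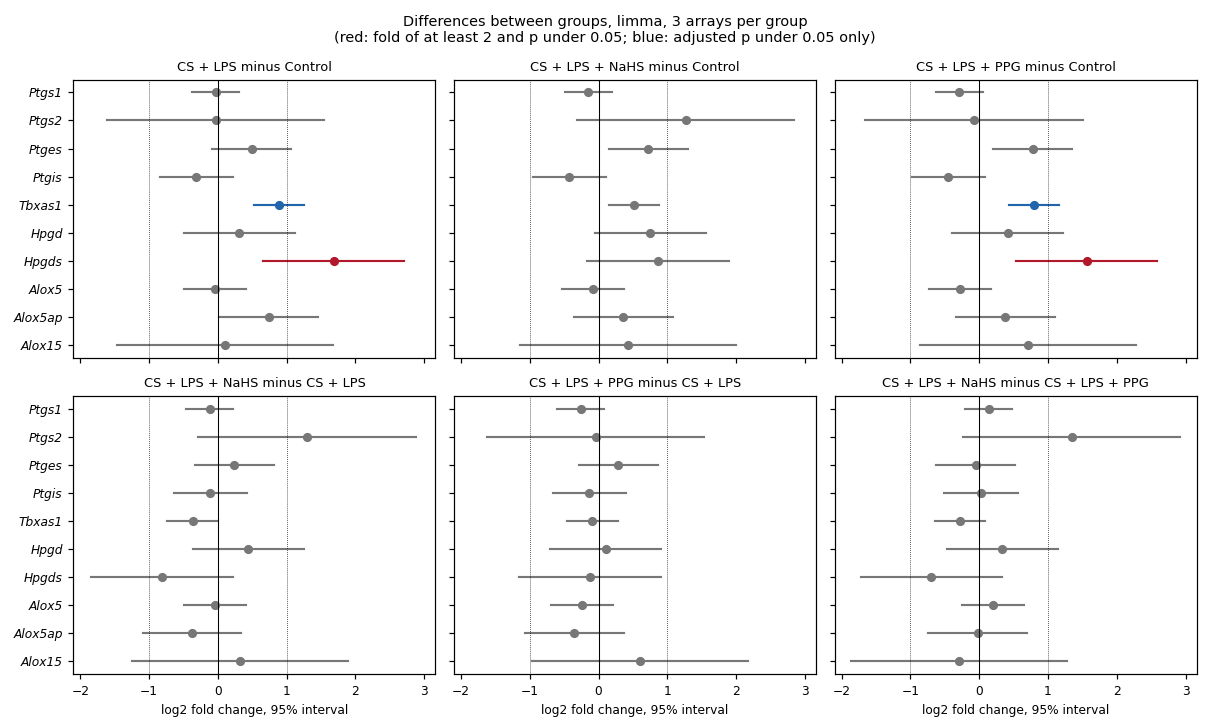
Log2 fold changes of the 10 genes in 6 comparisons with their 95% intervals (limma, 3 arrays per group), red where called by fold and p, blue where only the adjusted p was under 0.05, and dotted lines at a 2-fold change. Hpgds stands at 1.68 and 1.56 and Tbxas1 at 0.89 and 0.80 in CS + LPS and PPG against control, and the intervals of Ptgs2 and Alox15 span more than 3 log2 units.

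In bulk lung, more cells of a type and more RNA per cell cannot be told apart, so the markers of cells that carry these enzymes were read on the same arrays. The 7 macrophage markers summed to between 5488 and 10113 on control arrays. On CS + LPS arrays the sum lay between 14849 and 21384, on NaHS arrays between 15455 and 19783, and on PPG arrays between 14356 and 18022. Every exposed array lay above every control array, but Cd68 made up 61.9% to 66.1% of the sum on control arrays and 68.8% to 81.2% on exposed arrays. Without it the sums overlapped, at 1861 to 3598 on control and 3403 to 5338 on exposed arrays. In CS + LPS against control, Cd68 and Siglec1 rose by 1.37 and 1.13 (limma, adjusted p = 0.0285 and 0.0382), and the haemoglobin receptor gene Cd163 differed by -1.42 (adjusted p = 0.161), which makes 2 called higher and 1 called lower of 6 tested. Csf1r and Mrc1 overlapped with control in each exposed group by their most intense probes. Marco was above background on 1 array. In PPG and NaHS against control Cd68 was the 1 marker called, at 1.34 and 1.43, and Siglec1 rose by 0.90 in PPG with an adjusted p of 0.0476 in limma.

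The 9 mast cell markers summed to between 5889 and 6593 on control arrays and between 5169 and 16690 on CS + LPS arrays. On NaHS arrays the sum lay between 5227 and 6663, and on PPG arrays between 5463 and 5647. The high value was that of CS + LPS replicate 1, which also had the highest Hpgds level, whereas PPG replicate 3, second in Hpgds, had a sum of 5647. In CS + LPS against control 4 of the 9 markers were called higher (Cma1, Cpa3, Fcer1a and Mcpt1, at 1.01 to 1.85) and Tpsab1 was called lower too. In PPG against control Cma1 was the 1 marker called, at 1.10. In PPG against CS + LPS 2 of the 9 read higher and 7 lower. Of these, Mcpt1 and Fcer1a were called lower, at -1.98 and -1.24 (limma, adjusted p = 0.316 and 0.439). Of 5 eosinophil markers, Epx and Il5ra were above background on no array and Prg3 on 1, whereas Prg2 was on all 12, and the sum was 204 to 266 in control and 150 to 603 in the exposed groups. The eosinophil receptor gene Ccr3 was above background on 8 arrays, 3 of 3 in CS + LPS and 0 of 3 in control, and was called higher in CS + LPS against control at 1.56 (limma, adjusted p = 0.108).

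Platelet sums overlapped, lying between 10208 and 14857 on control arrays and between 9186 and 18890 on exposed arrays, and Gp1ba was above background on no array. Of 4 platelet markers tested, 0 were called in CS + LPS or PPG against control (limma, none at an unadjusted p under 0.05 either), and Ppbp was called with NaHS at 1.03. The neutrophil sum lay between 7809 and 18048 on control arrays. It overlapped with control on CS + LPS arrays, between 13140 and 27898, and on NaHS arrays, between 13029 and 29359. On PPG arrays, between 21696 and 33554, it did not overlap with control. All 6 markers tested read higher than control in each exposed group, with 2 called in PPG and 0 in CS + LPS or NaHS. Elane was above background on 1 array. The part of any of these cells in the levels of Hpgds or Tbxas1 was not tested.

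**Figure D3:**
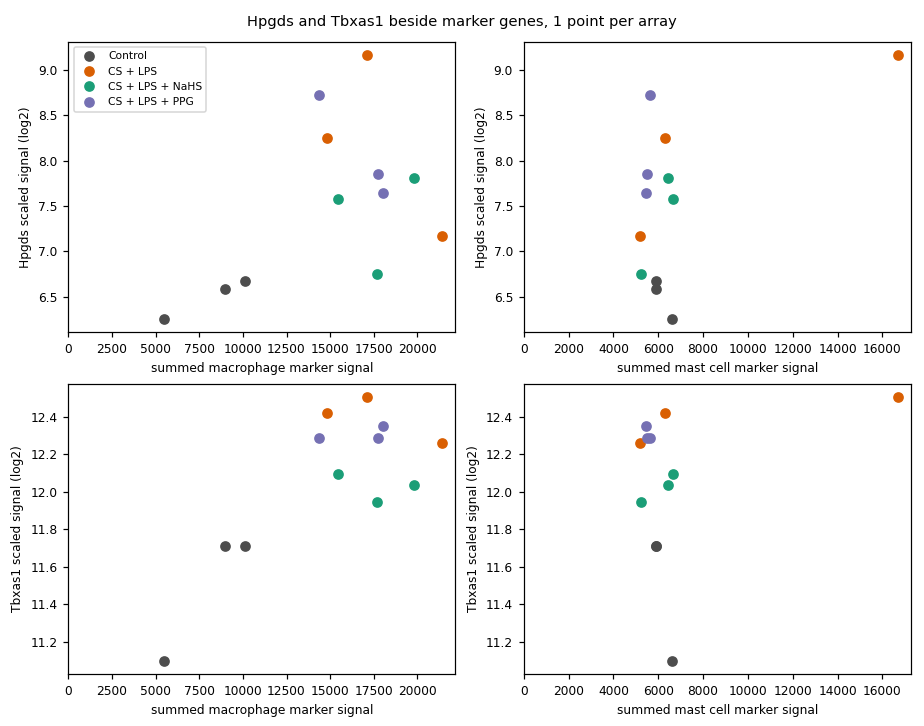
Scaled signal (log2) of Hpgds (top) and Tbxas1 (bottom) against the summed scaled signal of the macrophage markers (left) and mast cell markers (right), 1 point per array. The 9 exposed arrays lie to the right of the 3 control arrays for macrophage markers, a sum of which Cd68 is 61.9% or more on each array, and for mast cell markers only CS + LPS replicate 1 stands apart, at 16690.

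Ptgs1 and Ptgs2 encode the cyclooxygenases, which make prostaglandin H2, and Ptgs1 is the form that most tissues make at rest. Its promoter window (GRCr8, chr3:39981169-39981418, plus strand) is shown beside that of the inducible form, Ptgs2 (chr13:64713813-64714062, plus strand). Both windows are shown because the probes of Ptgs1 differed in the size of their change and Ptgs2 was near background. Capitals mark GAGGAA in Ptgs1. In Ptgs2 they mark a GC box, GGGCGG, and further on a box that reads CCAAT on the opposite strand.
Ptgs1: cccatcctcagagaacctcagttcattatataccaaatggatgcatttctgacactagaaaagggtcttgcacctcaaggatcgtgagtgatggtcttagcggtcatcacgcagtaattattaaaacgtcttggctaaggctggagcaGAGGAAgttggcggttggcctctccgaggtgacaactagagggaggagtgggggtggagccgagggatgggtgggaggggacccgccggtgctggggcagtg
Ptgs2: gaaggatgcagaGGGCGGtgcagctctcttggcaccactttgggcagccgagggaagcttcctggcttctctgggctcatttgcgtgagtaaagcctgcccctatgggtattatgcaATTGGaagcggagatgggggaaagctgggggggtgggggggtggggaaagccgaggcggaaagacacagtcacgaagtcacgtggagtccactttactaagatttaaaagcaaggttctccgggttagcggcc
GAGGAA lies 102 to 97 bases before the start site of Ptgs1, and in Ptgs2 the GC box lies 238 to 233 and the CCAAT box 133 to 129 bases before it. Of all windows, 30.5% hold GGGCGG and 34.0% hold CCAAT, read on both strands. TATAAA on the gene's strand, held by 8.06% of windows, TGACG on either strand (18.2%) and the kappa B motif (6.33%) were in neither. Of the 10 genes, 6 were in the promoter table, and among these 4 held a GC box (Ptgs2, Ptges, Hpgd and Alox5), 3 held GAGGAA (Ptgs1, Ptges and Tbxas1), and 1 each held CCAAT (Ptgs2), TGACG (Hpgd) and kappa B (Alox5). No match printed here overlaps another.

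The more intense probe of Ptgs1 read 11.71, 11.82 and 11.72 in control, 12.02, 11.69 and 11.44 in CS + LPS, 11.48, 11.62 and 11.69 with NaHS, and 11.31, 11.54 and 11.53 with PPG. The NaHS and PPG arrays lay below all control arrays by small margins, and the CS + LPS arrays lay on both sides. Differences from control were -0.031, -0.15 and -0.29, the last with a 95% interval of -0.63 to 0.049 (limma, adjusted p = 0.230). No change of Ptgs1 was detected with this probe.

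The dimmer probe of Ptgs1, above background on all 12 arrays, gave larger differences from control in the same direction. It gave 6.33, 5.95 and 6.36 in control, 5.81, 5.30 and 5.46 in CS + LPS, 5.68, 5.87 and 5.82 with NaHS, and 5.63, 5.50 and 5.50 with PPG, so that all 9 exposed arrays lay below all controls. It fell by 0.67 (SE 0.16), or 1.59-fold, in PPG against control (limma, adjusted p = 0.0426), and differed by -0.69 in CS + LPS (adjusted p = 0.0542) and by -0.42 in NaHS (adjusted p = 0.232). The 2 probes of Ptgs1 thus read lower than control in each exposed group and differed in size, most in CS + LPS (-0.031 and -0.69). Whether they differ beyond their spread, and which of them follows the transcript, was not tested.

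Ptgs2 was near background, so its values describe faint signals. It was above background on 1 of 3 arrays in control, 1 of 3 in CS + LPS, 3 of 3 with NaHS and 1 of 3 with PPG. Ptgs2 thus passed the filter on dim probes only through the NaHS group, its brightest, and its differences from that group are a description. Its levels were 2.83, 4.14 and 6.17 in control, 3.77, 4.74 and 4.54 in CS + LPS, 5.50, 5.58 and 5.86 with NaHS, and 5.11, 3.24 and 4.55 with PPG. All NaHS arrays lay above all CS + LPS and all PPG arrays, and within the range of the control arrays, where replicate 3 was the highest of all 12. Against CS + LPS the NaHS group lay 1.30 higher (95% interval -0.28 to 2.88, limma, adjusted p = 0.649), against PPG 1.34 higher (-0.24 to 2.92, adjusted p = 0.599), and against control 1.27 higher (-0.32 to 2.85, adjusted p = 0.370).

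None of these 3 differences of Ptgs2 was called, yet each depended on how it was tested. The methods' t-test, an unpaired test on the same values, called NaHS against CS + LPS, as did a fit of those groups alone and limma fits without control replicate 1 or control replicate 3, since the spread of the control arrays enters the shared error. Without control replicate 3, NaHS lay 2.16 above control and was called, and without control replicate 1 it lay 0.49 above control and was not called. With slide as a block, which rests on control replicate 3, NaHS lay 3.99 above CS + LPS. Because the probe passed the filter through the NaHS group alone, all these calls against that group are a description only. With normexp background correction the differences were 0.51 against CS + LPS, 0.22 against PPG and -0.019 against control, none of them called.

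Ptges encodes the microsomal prostaglandin E synthase that is induced with inflammation. Its levels were 6.17, 5.41 and 5.21 in control, where only replicate 1 was above background, 5.88, 5.92 and 6.46 in CS + LPS, 6.61, 6.14 and 6.22 with NaHS, and 6.49, 6.13 and 6.51 with PPG, all above background. Control replicate 1 overlapped with each exposed group and the other control arrays lay below all exposed arrays. The differences from control were 0.49, 0.73 and 0.78 (limma, adjusted p = 0.253, 0.214 and 0.0880), none of them called. With normexp they were -0.18, 0.014 and 0.12, and without control replicate 1 NaHS and PPG were called at 1.01 and 1.06.

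Ptgis encodes prostacyclin synthase of vessel walls. Its levels were 10.70, 10.86 and 10.90 in control, 11.14, 10.02 and 10.36 in CS + LPS, 10.37, 10.62 and 10.19 with NaHS, and 10.48, 10.29 and 10.34 with PPG. The NaHS and PPG arrays lay below all control arrays, and CS + LPS replicate 1 lay above them. Differences from control were -0.31, -0.42 and -0.45 (limma, adjusted p = 0.411, 0.371 and 0.235), and none was called. The 6 vessel wall markers summed to between 110246 and 138694 on control arrays and between 85044 and 114434 on exposed arrays. Of these 6, 1 read higher than control and 5 lower in CS + LPS. With NaHS and with PPG, 2 read higher and 4 lower. Cdh5 alone was called against control, at 1.10 with NaHS. Between exposed groups, 1 of the 6 was called higher with NaHS against CS + LPS, with an adjusted p under 0.05 in limma, and 1 with NaHS against PPG. The endothelial marker Pecam1 lay below all control arrays in each exposed group, at -0.57 in CS + LPS, -0.58 with NaHS and -0.81 with PPG (limma, adjusted p = 0.0719, 0.137 and 0.0248). The smooth muscle marker Myh11 differed by -0.46, -0.57 and -0.91 in the same order (limma, adjusted p = 0.419, 0.411 and 0.124), with overlap in each. The part of vessel cells in the levels of Ptgis was not tested.

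Hpgd encodes the dehydrogenase that inactivates prostaglandins, an enzyme for which the lung is known. Its levels were 13.34, 12.83 and 12.11 in control, 12.55, 13.80 and 12.87 in CS + LPS, 13.29, 13.79 and 13.48 with NaHS, and 12.88, 13.58 and 13.09 with PPG. All groups overlapped. NaHS lay 0.75 above control (95% interval -0.054 to 1.56, limma, adjusted p = 0.310), and without control replicate 1 it was called. The other differences from control were 0.31 and 0.42.

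Alox5, Alox5ap and Alox15 belong to the lipoxygenase branch, and 0 of these 3 genes were called in any of the 6 comparisons. Alox5 encodes 5-lipoxygenase, the first enzyme of the leukotrienes, and stayed within 9.87 to 10.76 on the 12 arrays. Its differences from control were -0.039 in CS + LPS (95% interval -0.49 to 0.41), -0.081 with NaHS (-0.53 to 0.37) and -0.28 with PPG (-0.73 to 0.17). These intervals leave out a 2-fold change in either direction.

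Alox5ap encodes the protein that presents arachidonic acid to 5-lipoxygenase. Its levels were 10.57, 10.57 and 9.17 in control, 10.99, 10.84 and 10.68 in CS + LPS, 10.54, 10.62 and 10.23 with NaHS, and 10.33, 10.37 and 10.76 with PPG. The CS + LPS arrays lay above all control and all NaHS arrays. Against control the difference was 0.74 in CS + LPS (95% interval 0.019 to 1.45, limma, adjusted p = 0.188). It was 0.27 without control replicate 3, the lowest array, and 1.67 on slide 2 alone, where that array is the only control.

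Alox15 encodes a lipoxygenase that makes lipoxin precursors and 12- and 15-hydroxy acids, and it had the widest spread of the lipoxygenase genes. Its levels were 9.24, 9.39 and 7.59 in control, 8.68, 9.76 and 8.10 in CS + LPS, 9.17, 9.42 and 8.91 with NaHS, and 8.47, 8.73 and 11.17 with PPG. PPG replicate 3 was the highest of all arrays, control replicate 3 the lowest, and all groups overlapped. The largest difference from control, 0.72 with PPG, had a 95% interval of -0.85 to 2.29.

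Groups that do not overlap were no more than a description with 3 arrays each. Between CS + LPS and control they were found for 3 of the 10 genes (Alox5ap, Hpgds and Tbxas1), against 25.5% of all probes. In NaHS and in PPG against control they were found for 4 genes each (Hpgds, Ptgis, Ptgs1 and Tbxas1), against 25.3% and 33.6%. Between NaHS and CS + LPS there were 3 (Alox5ap, Ptgs2 and Tbxas1, against 20.3%), between PPG and CS + LPS 0 (against 19.3%), and between NaHS and PPG 2 (Ptgs2 and Tbxas1, against 25.3%). Ptgs2 passed the filter on dim probes through the NaHS group alone, so its place in these counts may follow from the filter. Counts among 10 genes are too small to set against the shares of all probes, and the 3 comparisons with control share the same control arrays.

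The rest of the pathway was read from 42 listed genes, of which 40 were on the array and 36 were tested. In CS + LPS against control 0 were called higher and 1 lower, in PPG against control 1 was called higher and 0 lower, and 0 were called in the other 4 comparisons. In those 4, an unadjusted p under 0.05 without a 2-fold change was found for genes such as Ptgdr2 and Lta4h, given below. The median difference from control over the 36 genes was 0.11 in CS + LPS, 0.099 with NaHS and 0.070 with PPG.

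Of 8 phospholipases that release arachidonic acid, 6 read higher and 2 lower than control in each exposed group, and none was called. The cytosolic phospholipase Pla2g4a differed from control by 0.41 in CS + LPS and 0.53 with PPG (limma, adjusted p = 0.137 and 0.0618), and the secreted Pla2g2d by 0.80 and 0.61 (adjusted p = 0.116 and 0.159), genes chosen after their values were seen. Of 9 other prostanoid enzymes and transporters, the exporter Abcc4 fell by 0.88 (SE 0.15) in PPG against control (limma, adjusted p = 0.0207), from 10.53, 10.51 and 10.53 to 9.76, 9.63 and 9.54, and its second probe differed by -0.73 (adjusted p = 0.0530). Abcc4 differed from control by -0.46 in CS + LPS and by -0.55 with NaHS, with adjusted p of 0.112 and 0.145.

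Of 9 prostanoid receptors, Ptger1 was not on the array, Ptger3 did not pass the filter, and Ptgdr2 was called. Ptgdr2 encodes a receptor of prostaglandin D2, the product of Hpgds, on T helper cells, eosinophils and basophils. Its levels were 6.32, 6.13 and 6.67 in control, 4.79, 5.53 and 5.52 in CS + LPS, 5.95, 6.22 and 6.13 with NaHS, and 6.23, 5.97 and 6.42 with PPG. The CS + LPS arrays lay below all other arrays. Ptgdr2 fell by 1.09 (SE 0.22), or 2.13-fold, in CS + LPS against control (limma, adjusted p = 0.0398), and NaHS and PPG lay 0.82 and 0.92 above CS + LPS (limma, adjusted p = 0.149 and 0.124), comparisons in which slide and group cannot be told apart. The call of Ptgdr2 was lost with quantile normalization (-0.75), with normexp (-0.79), without control replicate 3 (-0.95) and without CS + LPS replicate 1 (-0.85). Its adjusted p was 0.05 or more in 11 of 12 limma fits with 1 array left out, and 0.363 by the methods' t-test.

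Of 11 other leukotriene and lipoxygenase enzymes, Alox15b did not pass the filter and none of the 10 others was called by its most intense probe. A dimmer probe of the transporter Abcc1 was called at -1.35 in CS + LPS against control (limma, adjusted p = 0.113), and its most intense probe read -0.32. Lta4h, which makes leukotriene B4 and was chosen after its values were seen, lay 0.88, 0.90 and 0.76 above control in CS + LPS, NaHS and PPG (limma, adjusted p = 0.101, 0.176 and 0.107), with control replicate 3 the lowest at 10.78 and the other control arrays at 12.06 and 12.03. All exposed arrays lay above these, at 12.32 or more.

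Of 5 leukotriene and lipoxin receptors, Fpr2 was not on the array, and Ltb4r2 and Cysltr1 did not pass the filter. Cysltr2, a receptor of cysteinyl leukotrienes, was called in PPG against control at 1.11 (SE 0.34, limma, adjusted p = 0.0734). It was near background, at 4.64, 4.22 and 3.29 in control, where only replicate 1 was above background, and 5.04, 5.44 and 5.01 with PPG. With normexp the difference was 0.048.

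**Figure D4:**
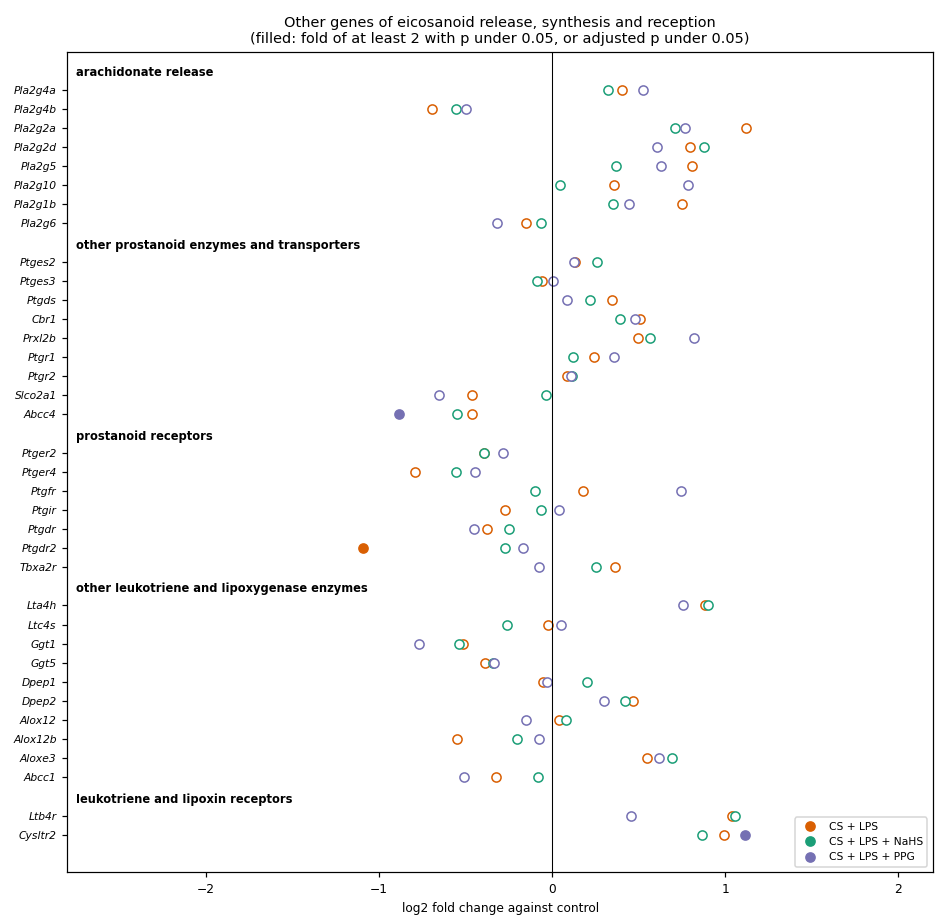
Log2 fold change against control of 36 other genes of eicosanoid release, synthesis and reception in CS + LPS, NaHS and PPG (limma, 3 arrays per group), filled where called by fold and p or with an adjusted p under 0.05. The filled points are Ptgdr2 in CS + LPS at -1.09, and Abcc4 at -0.88 and Cysltr2 at 1.11 in PPG.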

How the data were processed

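Lung RNA of 12 rats was labelled in 1 colour and hybridized to 1 array each. The authors scanned the arrays with Feature Extraction 10.7.3.1 (per the file headers) and deposited spot intensity, of which the background-subtracted processed signal was used. They also deposited 5 lists of differentially expressed probes with fold changes, p-values and log2 signals, which were not used. Groups came from the labels.

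Signals were put on the log2 scale, each array's 75th percentile was subtracted and the mean percentile added back. Spots marked as outliers were left out and spots of a probe averaged. A probe was kept if every array of some group had it flagged as well above background. Limma 3.58.1 (R 4.3.3) was fitted to all 12 arrays, so that 4 groups shared 1 estimate of the spread. With 3 rats against 3, an exact permutation test cannot go below 0.1 for a single gene. The fit was tested on simulated data.

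Symbols came from RefSeq accessions in a gene table of assembly GRCr8, which named 17514 of 30367 probes, and promoter windows from RefSeq GRCr8, which held 6 of the 10 genes. A gene was read from its brightest probe, and its other probes are given where they differ. All members are named, pathway genes where called or with an adjusted p under 0.05, and markers by list. Pla2g4a, Pla2g2d and Lta4h were named after their values were seen. The members and lists were chosen with earlier results of these data known.

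Alternatives were quantile normalization, another percentile, normexp (offset 50, on median spot signals), outlier spots kept, 2 other filters, slide or replicate number as a block, arrays of 1 slide, the groups compared alone, the methods' t-test, the mean of a gene's probes, and leaving out each array.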

Additional observations from a re-analysis of the deposited data

How the results depend on the processing

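The direction of 29 gene differences was followed through 681 fits of the alternatives. Many of these fits could not turn it, because they leave the difference itself unchanged. Such were the replicate block, other filters, groups compared alone, the t-test, and leaving out an array of a group not compared. The share of turns is therefore no measure of stability. The unadjusted p rose past the threshold of the calls in 45 fits and fell under it in 44. The direction turned in 4 fits. With normexp, Ptges in CS + LPS against control was -0.18 and Ptgs2 in NaHS against control was -0.019, and Hpgds in PPG against CS + LPS was 0.36 without CS + LPS replicate 1 and 0.093 without PPG replicate 1, in a range of -0.63 to 0.36 over the arrays left out. Normexp also moved the mean level of Ptgs2 to 6.61 and of Ptges to 7.14. It left 0 of the 10 genes and 0 pathway genes called in PPG against control, where 377 of 21239 probes were called.

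With slide as a block, 4 of the 10 genes were called in CS + LPS against control, with Alox5ap, Hpgds and Tbxas1 higher and Ptgs2 lower. With the block 1 was called in NaHS against control and 2 in NaHS against CS + LPS (Alox5ap lower and Ptgs2 higher). In PPG against CS + LPS 2 were called, and 1 in NaHS against PPG. On slide 1 alone 1 was called in NaHS against control and 1 in NaHS against PPG, where 2.0% and 0.654% of all probes were called. Pathway genes called were 9, 1, 7 and 8 in the first 4 of these comparisons with the block. The block rests on control replicate 3. It called 22.9% of all probes in CS + LPS against control (4.60% without it), 20.4% in NaHS against CS + LPS (1.94%), 20.2% in PPG against CS + LPS (2.14%), 1.98% in NaHS against control and 0.621% in NaHS against PPG. In NaHS against CS + LPS, 1 of the 10 genes was called with the groups compared alone and 1 by the methods' t-test, and in NaHS against PPG 1 with these groups alone. Of all 21239 probes, 468, 344 and 136 were called in the same order. Ptgs2 had passed the filter on dim probes through the NaHS group alone, so its calls against that group are a description.

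Pathway genes called in CS + LPS against control were 3 with quantile normalization, 2 without a filter and 2 with the groups compared alone. Over all probes, 924 of 21239, 2151 of 30367 and 751 of 21239 were called in the same order. In PPG against control they were 2 without a filter, 0 with the filter on all 12 arrays and 0 by the methods' t-test, and in NaHS against CS + LPS 1 without a filter. Over all probes these fits called 1283 of 30367, 658 of 18970 and 502 of 21239 in PPG against control, and 728 of 30367 in NaHS against CS + LPS.

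With 1 array left out, the number of the 10 genes called was 1 to 1 in CS + LPS against control, 1 to 2 in PPG and 0 to 2 in NaHS against control (2 without control replicate 1, Hpgd and Ptges), 0 to 1 in NaHS against CS + LPS and against PPG, and 0 to 0 in PPG against CS + LPS. For pathway genes it was 1 to 5 in CS + LPS (5 without control replicate 2), 0 to 3 in PPG and 0 to 3 in NaHS against control. It was 0 to 0 in NaHS against CS + LPS, and 0 to 1 in PPG against CS + LPS and in NaHS against PPG. The calls over all 21239 probes moved too, from 615 to 1854 in CS + LPS, 680 to 1589 in PPG and 420 to 1205 in NaHS against control. Each of these was highest without control replicate 2 and lowest without control replicate 3. The range was 359 to 513 in NaHS against CS + LPS, 400 to 556 in PPG against CS + LPS and 103 to 160 in NaHS against PPG.

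Replicate numbers did not pair the rats: over 18 pairs with the same number, deviations from the group means correlated at -0.31 to 0.14, and 2 pairs were over 0.1. With the replicate block, 1 of the 10 genes was called in CS + LPS and 1 in PPG against control, beside 969 and 905 of 21239 probes. In CS + LPS against control 2 pathway genes were called, and the adjusted p of Tbxas1 in PPG against control was 0.0528 (limma).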
